A study of Homo sapiens with 4 samples.

Results

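miR-221 and miR-222 are 2 of the 851 human miRNAs on the array, and were taken by the miRNA names in the array files, hsa-miR-221 and hsa-miR-222, with no measured value used to choose them. HepG2, a human cell line derived from hepatocellular carcinoma (HCC), was given 40 µM of the plant alkaloid berberine, as its chloride salt, and control cells received 0.08% DMSO, the solvent in which the berberine stock was made. The cells were sampled at 2 h and 4 h, and their total RNA was labelled with Cy3 on Agilent human miRNA microarrays. The 4 conditions were DMSO for 2 h, berberine for 2 h, DMSO for 4 h and berberine for 4 h, each with 1 array, and all 4 arrays were on 1 slide in 1 scan. There were thus no replicate cultures, and the errors below are those that the image software Feature Extraction gives for an array signal, which leave out the spread between cultures.

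The labelled cell line was checked against marker miRNAs. All 4 liver markers, with the hepatocyte miRNA miR-122 among them, and all 5 epithelial markers were detected on every array. The unscaled signal of miR-122 was low, at 31.5, 22.4, 30.1 and 39.9 (DMSO 2 h, berberine 2 h, DMSO 4 h, berberine 4 h). The mesenchymal marker miR-145 was at 30.8, 19.7, 29.9 and 42.3 on these arrays. The liver sums below thus come almost wholly from the other liver markers. Markers of endothelium, muscle and neurons were not detected on any array. Of the 6 blood markers, 2 were detected on the berberine 4 h array only, with a summed signal of 11.4. Of the 4 mesenchymal markers, 2 were detected on both DMSO arrays and on the berberine 2 h array, and 3 on the berberine 4 h array. The summed mesenchymal signal, unscaled, was 50.9 and 33.1 at 2 h and 50.0 and 74.7 at 4 h (DMSO and berberine, respectively). The liver sum was 3913 and 2594 at 2 h and 3258 and 4849 at 4 h, and the epithelial sum 759 and 525 at 2 h and 683 and 950.4 at 4 h, so all 3 were lower with berberine at 2 h and higher at 4 h. After scaling to array brightness, as below, 2 mesenchymal markers had a ratio. Their median log2 ratio was -0.09 at 2 h and 0.10 at 4 h, and neither was beyond 1.96 SE. The medians were -0.05 and 0.14 over the 4 liver markers and -0.05 and 0.10 over the 5 epithelial markers. Of these, only the liver marker miR-194 was beyond 1.96 SE, at 0.32 (SE 0.16) at 4 h. Among all miRNAs, 9.14% were beyond 1.96 SE at 2 h and 11.5% at 4 h.

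miR-221 and miR-222 are processed from neighbouring hairpins on the X chromosome. Both are known to repress the cyclin-dependent kinase inhibitors CDKN1B (p27) and CDKN1C (p57), which hold back the cell cycle. Both are known to be raised in HCC. The array names hsa-miR-221 and hsa-miR-222 stand for the 3p arms of the hairpins, and the names with an asterisk stand for the opposite arms.

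The mature sequences are shown here because a miRNA finds most of its targets through its seed, bases 2 to 8, and the pair have the same seed. They are taken from RefSeq (GRCh38.p14), 5′ to 3′, with the seed in capitals.
hsa-miR-221-3p: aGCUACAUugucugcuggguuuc
hsa-miR-222-3p: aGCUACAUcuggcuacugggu

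miR-221-3p has 23 bases and lies at chrX:45746180-45746202, and miR-222-3p has 21 bases and lies at chrX:45747036-45747056, both on the minus strand. The first 8 bases were identical and the first difference was at base 9. Over the 21 bases that could be compared, 11 were identical. Among 2370 mature human miRNA names in the RefSeq table, only these 2 had this seed. The hairpins are 110 bases long each and 748 bases apart, and both lie within the annotated long noncoding RNA gene MIR222HG.

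Both miRNAs were detected on all 4 arrays. The total signal of miR-221, as deposited, was 149 ± 12.5 (signal error) with DMSO for 2 h, 105 ± 8.92 with berberine for 2 h, 134 ± 11.2 with DMSO for 4 h and 188 ± 15.6 with berberine for 4 h. The total signal of miR-222 was 26.2 ± 2.85, 19.6 ± 2.51, 24.8 ± 2.89 and 34.8 ± 3.67 on the same arrays, in the same order. For both miRNAs, the berberine array was therefore the dimmer of the pair at 2 h and the brighter at 4 h. Before any scaling, miR-221 with berberine was 0.703-fold of the DMSO signal at 2 h and 1.40-fold at 4 h, and miR-222 was 0.748-fold and 1.40-fold.

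The arrays as a whole differed in brightness in the same way. Among the 197 human miRNAs with a detected signal on each of the 4 arrays, the 75th percentile of signal was 243 and 169 at 2 h and 225 and 297 at 4 h (DMSO and berberine, respectively). The median unscaled log2 ratio of berberine over DMSO was -0.55 over 197 miRNAs at 2 h and 0.51 over 218 miRNAs at 4 h, beside -0.51 and 0.48 for miR-221 and -0.42 and 0.49 for miR-222. Signals were therefore compared after division by this percentile of the array, on the log2 scale. Less of a miRNA in each cell and less of it because of fewer cells cannot be told apart in such bulk RNA, nor can a change in all miRNAs be told apart from a change in array brightness.

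After scaling, the log2 level of miR-221 was -0.70 ± 0.12 (SE of the array signal) with DMSO for 2 h, -0.69 ± 0.12 with berberine for 2 h, -0.75 ± 0.12 with DMSO for 4 h and -0.66 ± 0.12 with berberine for 4 h. The level of miR-222 was -3.22 ± 0.16, -3.11 ± 0.19, -3.18 ± 0.17 and -3.10 ± 0.15 on the same arrays. From the lowest array to the highest, miR-221 differed by 0.08 ± 0.17 and miR-222 by 0.12 ± 0.22 on the log2 scale. For each miRNA both DMSO arrays were below both berberine arrays, but no array differed from its neighbour in this order by more than 1.96 SE. As the direction at 4 h turned with another scaling (scaling to the median gave -0.09 for miR-221 and -0.08 for miR-222), no direction is given. Ranked by signal among the 197 miRNAs, miR-221 was at position 70 on both 2 h arrays and at position 68 on both 4 h arrays. miR-222 was at positions 142 and 144 at 2 h and 135 and 137 at 4 h (DMSO and berberine, respectively).

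**Figure D1:**
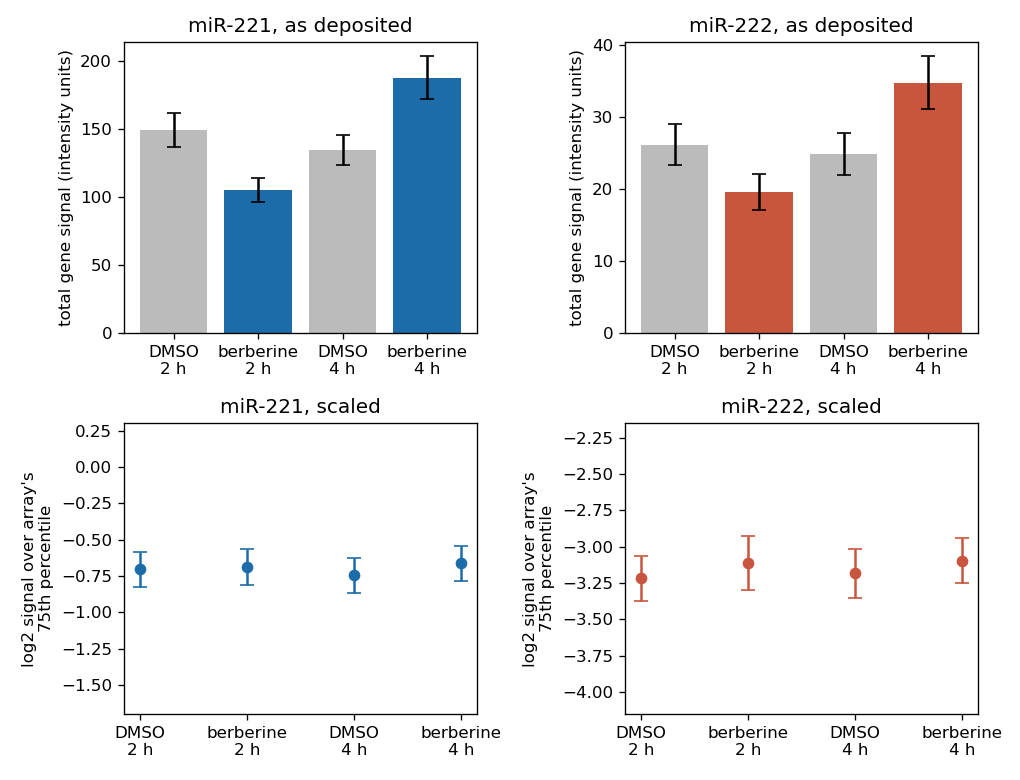
Signal of miR-221 (left) and miR-222 (right) on each array, as total gene signal in intensity units (bars, top) and as log2 signal over the array's 75th percentile (points, bottom), with 1 array per condition and error bars of 1 signal error. The deposited signal was lower with berberine at 2 h and higher at 4 h, whereas the scaled levels spanned 0.08 for miR-221 and 0.12 for miR-222.

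Whether berberine altered the pair was asked at each time. At 2 h, the scaled log2 ratio of berberine over DMSO was 0.02 for miR-221 (SE 0.17, 1.01-fold, 95% range from the signal errors 0.801 to 1.28) and 0.11 for miR-222 (SE 0.24, 1.08-fold, 0.774 to 1.50). At 4 h, it was 0.08 for miR-221 (SE 0.17, 1.06-fold, 0.840 to 1.33) and 0.09 for miR-222 (SE 0.23, 1.06-fold, 0.780 to 1.45). All 4 ranges included no change and none reached 2-fold.

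Neither miRNA passed 2-fold in either direction at 2 h, when 1.02% of the 197 miRNAs with a ratio did, nor at 4 h, when 0.917% of 218 did. Neither lay beyond 1.96 SE of no change, a limit passed by 9.14% of miRNAs at 2 h (7.11% higher and 2.03% lower) and by 11.5% at 4 h (8.72% higher and 2.75% lower). With so few miRNAs past either limit, the absence of the pair among them says little about the pair. From the highest ratio downward, miR-221 and miR-222 were 75th and 47th of 197 at 2 h, and 128th and 125th of 218 at 4 h. The median ratio over all miRNAs was -0.02 at 2 h and 0.11 at 4 h, and relative to it miR-221 was at 0.04 and -0.03 and miR-222 at 0.13 and -0.02. miR-21*, the passenger strand of the miR-21 hairpin and the highest ratio at both times, had log2 ratios of 2.59 and 1.68 on the same scale. Its guide strand miR-21 was at -0.02 and 0.24.

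**Figure D2:**
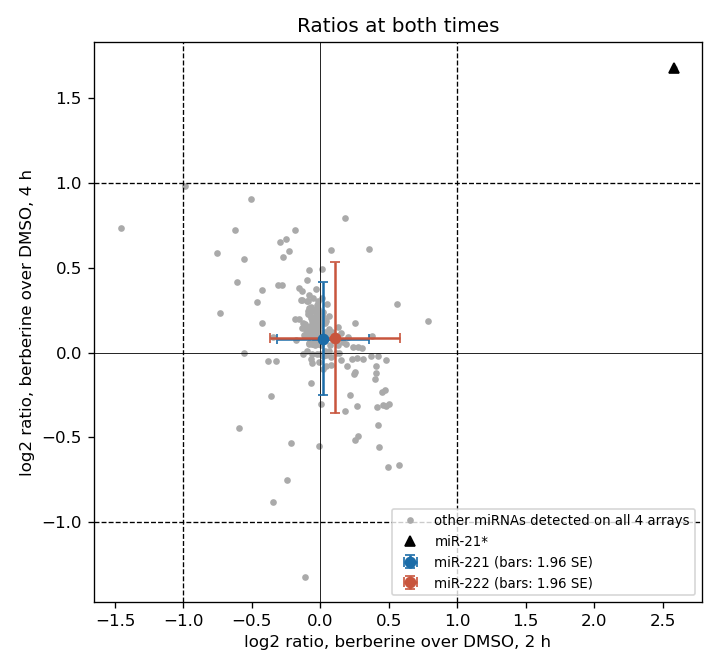
Scaled log2 ratio of berberine over DMSO at 2 h (x axis) and at 4 h (y axis) for the 197 human miRNAs detected on all 4 arrays, with dashed lines at 2-fold. miR-221 (blue) and miR-222 (red), with bars of 1.96 SE, lay within the cloud, and miR-21* (triangle) lay apart.

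Both times together were fitted with limma over all 197 miRNAs, with treatment and time point as terms and 1 residual degree of freedom for each miRNA. The log2 ratio over both times was 0.05 (SE 0.21, adjusted p = 0.997) for miR-221 and 0.10 (SE 0.21, adjusted p = 0.997) for miR-222, after Benjamini-Hochberg adjustment. This fit called 0.508% of the miRNAs, miR-21* alone, at a log2 ratio of 2.13. In 9 of 10 alternative fits that tested miR-21* it was not called, at log2 ratios of 1.67 to 2.14 there. At an unadjusted p under 0.05 it had 9 miRNAs, and neither miR-221 nor miR-222 was among them.

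The effect at 4 h was set against that at 2 h. The ratio at 4 h minus that at 2 h was 0.07 (SE 0.24) for miR-221 and -0.02 (SE 0.33) for miR-222 on the log2 scale, both within the signal errors. In control cells, the ratio of 4 h over 2 h was -0.04 (SE 0.17) for miR-221 and 0.04 (SE 0.23) for miR-222. Neither was among the 2.28% of 219 miRNAs past 2-fold between the control arrays. Time and array cannot be told apart in that comparison.

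The total signal of each miRNA is the sum over its detected probes, and the probes were therefore followed separately. miR-221 has 2 probes with 8 spots each, both detected on every array. Probe 1 gave 29.1, 21.4, 27.8 and 36.5 and probe 2 gave 120, 83.7, 107 and 151 (DMSO 2 h, berberine 2 h, DMSO 4 h, berberine 4 h). Probe 1 thus contributed 19.4% to 20.7% of the total on each array. At 2 h the scaled log2 ratio was 0.08 (SE 0.24) by probe 1 and 0.0006 (SE 0.21) by probe 2, and at 4 h it was -0.01 (SE 0.22) and 0.10 (SE 0.21). The probes agreed within their errors at both times.

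miR-222 also has 2 probes with 8 spots each, but its signal came from probe 2 alone. Probe 1 gave 0.39, 0.31, 1.67 and 1.41 on the 4 arrays, or 0.198 to 1.19 times its error, and was below the detection limit of 3 errors on every array. The values of miR-222 thus rest on 8 spots per array. Those of miR-221 rest on 16 spots with DMSO for 2 h, 14 with berberine for 2 h and 15 on each 4 h array, since spots that the software marked as outliers do not enter the probe signal. For every probe that was detected, the spots of the berberine array overlapped with those of the DMSO array at both times, with or without the outlier spots. Such overlap is a loose criterion. The scaled mean spot difference at 2 h and 4 h was 0.06 (standard error over spots 0.06) and 0.04 (0.05) for miR-221 probe 1. It was -0.03 (0.03) and 0.10 (0.04) for miR-221 probe 2, and 0.09 (0.03) and 0.11 (0.05) for miR-222 probe 2. This error covers repeat spots of 1 RNA sample and leaves out that of the scaling.

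**Figure D3:**
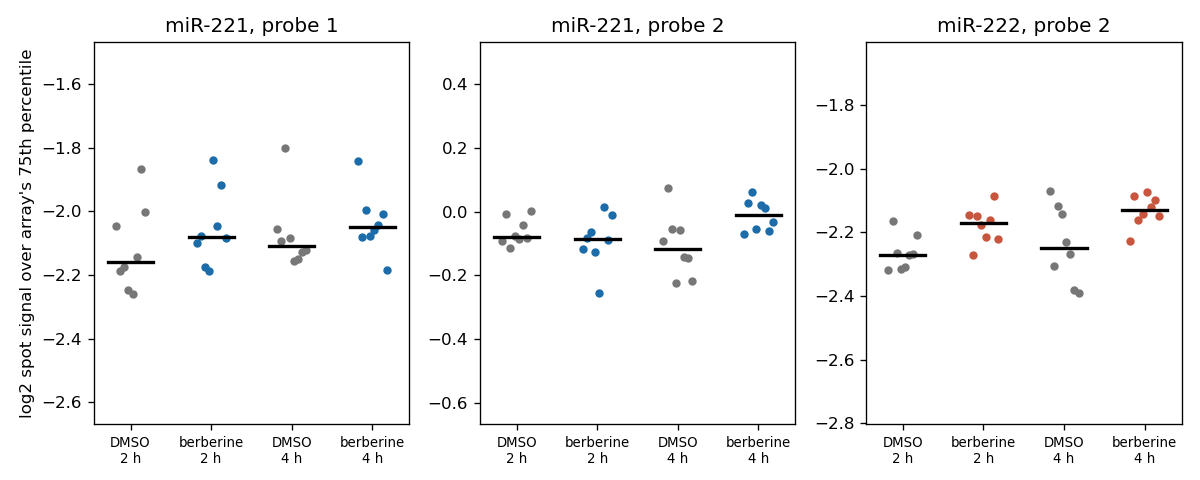
Log2 signal of each spot over the array's 75th percentile for the 3 detected probes, 2 of miR-221 and 1 of miR-222, with 8 spots per array, outlier spots included (DMSO in grey, berberine in colour, median as a line). The spots of berberine and DMSO arrays overlap in every panel, and spots of an array are repeat measurements of 1 RNA sample.

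As the pair come from neighbouring hairpins, they were also compared with each other within each array, where array brightness cancels. The log2 signal of miR-221 minus that of miR-222 was 2.51 ± 0.20 with DMSO and 2.43 ± 0.22 with berberine at 2 h, and 2.44 ± 0.21 with DMSO and 2.43 ± 0.19 with berberine at 4 h. The size of this value depends on the probes and is not a ratio of abundance, but its range over the arrays was 0.09. The change with berberine was -0.09 (SE 0.30, 95% range -0.67 to 0.49) at 2 h and -0.01 (SE 0.28, -0.56 to 0.55) at 4 h. These ranges allow the ratio of the pair to move by 0.627-fold to 1.41-fold at 2 h and by 0.678-fold to 1.47-fold at 4 h.

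Other miRNA pairs known to come from a shared cluster gave the background for this difference. Of 21 other listed pairs, 16 were detected on all arrays, some of them with members made at more than 1 locus. Their median absolute difference of the log2 ratios was 0.10 at 2 h and 0.10 at 4 h, and none of the 16 was beyond 1.96 SE. The SE of a difference was 0.20 to 0.37 over these pairs, wide beside that median. Pairs that share no cluster were not compared, so these values cannot show whether cluster mates move together. The difference was smaller than that of miR-221 and miR-222 in 7 of the 16 at 2 h and in 1 at 4 h. The largest difference at both times was between miR-183 and miR-182, at 0.32 and -0.36.

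**Figure D4:**
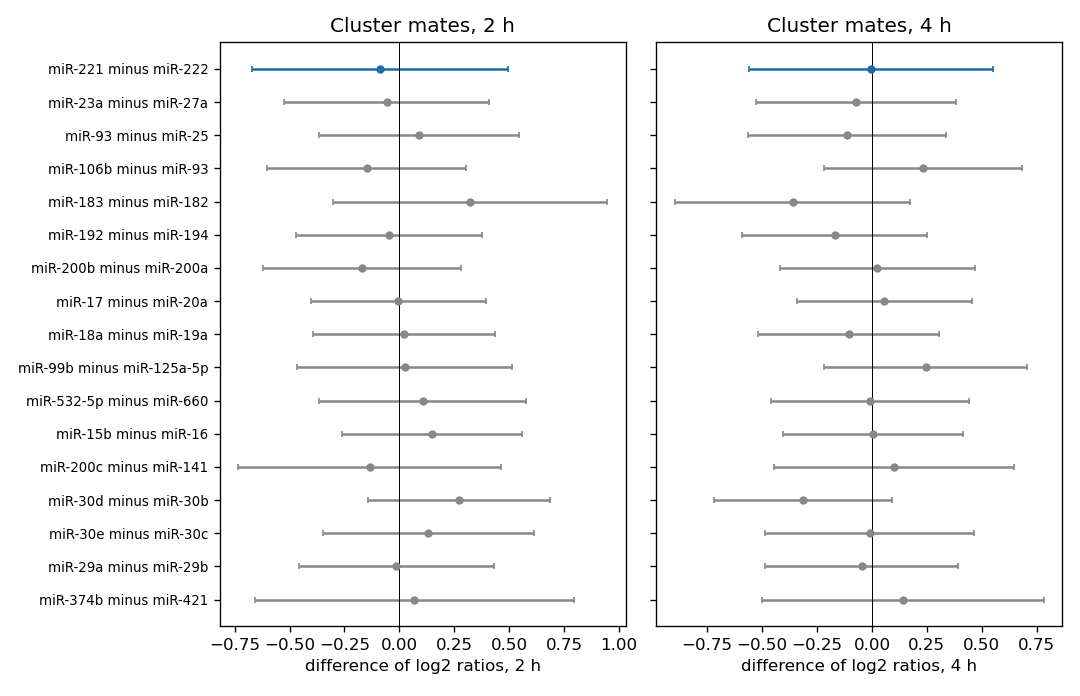
Difference between the scaled log2 ratios of berberine over DMSO of 2 miRNAs of a cluster, at 2 h (left) and 4 h (right), for 17 pairs, miR-221 and miR-222 included, with bars of 1.96 SE. miR-221 minus miR-222 is in blue, at -0.09 and -0.01, and all 17 bars cross 0 at both times.

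The opposite arms of the hairpins were near or below detection. miR-221* had a total signal of 9.89 ± 1.74 with DMSO for 2 h, was not detected with berberine for 2 h, and had 5.65 ± 1.58 with DMSO and 11.1 ± 1.85 with berberine for 4 h. On the berberine 2 h array, its brighter probe was at 2.84 times its error, just under the limit of 3. On the DMSO 4 h array, 1 of its 2 probes entered the total, whereas both did on the berberine 4 h array. The log2 ratio at 4 h was therefore 0.57 (SE 0.47) from the totals and -0.13 (SE 0.42) when the same 2 probes were summed on both arrays. The sign at 4 h thus depended on which probes were summed, and the second value includes a DMSO probe below the limit. No ratio is given at 2 h, since neither probe was above the limit with berberine, and a difference was not detectable at this signal.

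miR-222* was not detected on any array. Its 4 probes gave 16 values from -1.11 to 1.05, of which the highest was 1.71 times its error. No ratio is given for it. Its sequence in RefSeq differs from that of the 3p arm in the seed, shown in capitals, and it lies at chrX:45747073-45747094.
hsa-miR-222-5p: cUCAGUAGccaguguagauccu

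The pair were set beside other miRNAs whose level is known to differ in HCC. Of the other miRNAs known to be raised in HCC, 15 of 16 had a ratio, and miR-155, a miRNA of immune cells, was not detected on any array. Their median log2 ratio was -0.02 at 2 h and 0.13 at 4 h, beside -0.02 and 0.11 over all miRNAs. At 2 h they ranged from -0.42 (miR-182, SE 0.29) to 0.19 (miR-151-3p, SE 0.16). None of the 15 was beyond 1.96 SE, beside 9.14% of all miRNAs at 2 h. At 4 h they ranged from -0.02 (miR-96) to 0.37 (miR-182, SE 0.24), and miR-210, the hypoxia-responsive miRNA, was alone beyond 1.96 SE at 0.30 (SE 0.15). This is 1 of 15, where 8.72% of all miRNAs were beyond 1.96 SE and higher at 4 h, and 11.5% in either direction. Of the miRNAs known to be lowered in HCC, 9 of 14 had a ratio, with a median of -0.08 at 2 h and 0.13 at 4 h. Among them, miR-125b was alone beyond 1.96 SE, at 0.49 (SE 0.21) at 4 h. That is 1 of 9, beside the same 8.72% higher and 11.5% in either direction. The hepatocyte miRNA miR-122 was at 0.03 and 0.01. No miRNA of these lists passed 2-fold at either time, beside 1.02% of all miRNAs at 2 h and 0.917% at 4 h. With so few past this limit, their absence says little about the lists.

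Among miRNAs with no asterisk in the array name, 68 others were on the X chromosome by RefSeq name, and 19 of them were detected on all 4 arrays. A ratio could be given for these 19 at 2 h and for 21 at 4 h, where detection on both arrays of that time was enough. The median log2 ratio was -0.07 over 19 at 2 h and 0.18 over 21 at 4 h. At either time 0 were past 2-fold, beside 1.02% of all miRNAs at 2 h and 0.917% at 4 h. With so few past this limit, a count of 0 says little about these miRNAs. Beyond 1.96 SE and lower was 1 of 19 at 2 h, beside 2.03% of all miRNAs. Beyond 1.96 SE and higher were 5 of 21 at 4 h, beside 8.72% of all miRNAs, and this difference in share was not tested. The 5 were miR-362-3p, miR-374b, miR-501-5p, miR-502-3p and miR-532-3p. Some X-chromosome miRNAs share a cluster, such as miR-532-5p with miR-660 and miR-374b with miR-421. They are therefore not independent of each other, and a share can rest on few loci. The lowest at 2 h was miR-452 (-0.73, SE 0.35), and the highest at 4 h was miR-501-5p (0.79, SE 0.32).

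The miRNAs with the pattern most like that of each member over the 4 arrays were named by the smallest distance between scaled log2 levels, each centred on its own mean, among 196 others. For miR-221 they were miR-15a (distance 0.02), miR-199b-5p (0.02) and miR-331-3p (0.03), beside a median distance of 0.19. For miR-222 they were miR-15b (0.04), miR-107 (0.05) and miR-34b* (0.06), beside a median of 0.20. miR-222 was at position 25 in the order of miR-221, at a distance of 0.07, and miR-221 was at position 5 in that of miR-222. The patterns compared are themselves within the signal errors, so the order is a description of these 4 arrays.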

How the data were processed

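For each array, the authors deposited the output of Feature Extraction 10.7.3.1, in which the background-subtracted intensity of spots is summed over detected probes (above 3 errors) to a total signal for each miRNA, not scaled between arrays. Signals of miRNAs that were not detected are listed at 0.1. A second deposited table holds only the authors' own ratios of berberine over control and was not used.

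The log2 total signal minus the 75th percentile of the array, over 197 human miRNAs detected on all 4 arrays, was compared without a test at each time. Errors were propagated from the signal errors, and 95% ranges are 1.96 SE. limma 3.58.1 (R 4.3.3) was fitted over both times with time point as a covariate. Its test on simulated data used the same variance for every miRNA and no time effect, which these data need not share. The number of arrays limits the precision. With 1 array per condition, the 2 times stand in for replicates. The 1 residual degree of freedom is the difference of the berberine effect between the times. The p-values rest on that difference and on the spread pooled over all miRNAs, not on replicate cultures. This spread may be technical. The 2-fold limit is that of the study's methods.

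Named were the members, their opposite arms and miRNAs with their seed, the 3 nearest patterns, the extremes of each list, and miR-21 and miR-21*. miR-210 and miR-155 were named after their values were seen. No measured value was used to choose the members. Even so, the members, lists, pairs and markers were chosen with earlier results of these data known. Names were matched to RefSeq for 575 of 680 miRNAs without an asterisk. Feature Extraction's array design names build hg18, and coordinates are those of RefSeq only. Alternatives covered scaling, probe summary, background and covariates, and those that averaged spots kept outlier spots. A further list of miRNAs is not reported here.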

Additional observations from a re-analysis of the deposited data

How the results depend on the processing

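Without scaling, the log2 ratio of miR-221 was -0.51 at 2 h and 0.48 at 4 h, and that of miR-222 was -0.42 at 2 h. With the 75th percentile taken over all 851 human miRNAs, the ratio of miR-221 was 5.12 at 2 h, -0.32 at 4 h and 0.46 between the control arrays, and that of miR-222 was 5.21 at 2 h and 0.54 between the control arrays. This percentile was 4.96, 0.1, 3.24 and 5.66 (DMSO 2 h, berberine 2 h, DMSO 4 h, berberine 4 h), so on the berberine 2 h array, where 23.4% of miRNAs were detected, it fell on the value listed for miRNAs not detected. These 2 values at 2 h were the only ones of 48 past 2-fold. The other values at each time and for the pair moved by less than 1.96 SE. Among them, another background correction (normexp) put miR-222 at 0.33 at 2 h and -0.26 at 4 h, beside 0.11 and 0.09. It put miR-221 minus miR-222 at -0.25 and 0.21, beside -0.09 and -0.01. The limma ratio over both times turned negative for miR-221 without scaling (-0.014), with median scaling (-0.043) and with the brightest probe (-0.047), and for miR-222 with quantile normalization (-0.046). Leaving out each array in turn, without the time point, gave 0.03 to 0.07 for miR-221 and 0.08 to 0.11 for miR-222. The adjusted p was 0.803 to 1 for miR-221 over 11 and 0.740 to 1 for miR-222 over 10. miR-222 and miR-21*, limma's 1 call, were not among the upper part of miRNAs by mean signal. miR-21* was not called in 9 of the 10 other fits, at log2 ratios of 1.67 to 2.14, and was called without the berberine 4 h array. A high adjusted p in these fits therefore says little about the pair. Where an array is left out, the lone array of its treatment is assumed to vary like the other treatment's pair. The main fit drew on 54.2 prior degrees of freedom, and the one with median scaling on 1.58. miRNAs past 2-fold numbered 1 to 197 higher and 0 to 10 lower at 2 h, 0 to 12 higher and 0 to 6 lower at 4 h, and 0 to 2 higher and 0 to 8 lower between the control arrays, beside 1 and 1, 1 and 1, and 1 and 4 with the main scaling. The alternative with the authors' deposited ratios was not run, since that table was not used. The time point term sets each berberine array against the DMSO array of its time. Without it the ratios were the same (0.05 and 0.10), as they must be in this balanced design. The SE without it was 0.11 for each miRNA, beside 0.21 with it. A block by replicate number cannot be fitted, since every array has the number 1. Signal over background limits miR-222, measured by 1 probe, and both opposite arms.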
